A study of Mus musculus with 14 samples.

Results

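N-acyl amino acids are lipids in which a fatty acid is joined to an amino acid through an amide bond, and C18:1-leucine, the compound given to the mice of this study, is one of them. The genes described here are 10 enzymes that make or cleave N-acyl amino acids and related amides: Pm20d1, Faah, Naaa, Napepld, Gde1, Abhd4, Baat, Glyat, Acnat1 and Acnat2. They were chosen by name, not by their measured values, as the rows of the count table with these symbols. Earlier results of these data were known when they were chosen. All 10 were found among the 45706 genes of the table, and all 10 had enough counts to be among the 15674 genes tested.

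RNA of whole liver was sequenced in 14 libraries from male C57BL6/J mice, 8 weeks old at the start, after 16 weeks on a diet. The chow group (CD in the titles, 4 libraries) received a standard diet, and the MASH group (3 libraries) a diet made to bring on MASH, the inflamed form of fatty liver disease linked to metabolic dysfunction. The C18:1 group (MASH OA, 4 libraries) and the C18:1-leucine group (MASH OAL, 3 libraries) stayed on the MASH diet and received the free fatty acid or its leucine conjugate for 6 more weeks. The design names a vehicle, but the titles do not say whether the MASH group received it, and the sources used here give no doses. The labels do not say that each library came from a separate mouse, so p-values measure the spread between these libraries, which may in part be technical.

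As background, these enzymes act along several connected routes. PM20D1 is a secreted enzyme that condenses free fatty acids with amino acids and also runs in reverse, and FAAH is a membrane-bound hydrolase inside the cell that cleaves N-acyl ethanolamines such as anandamide and also N-acyl amino acids and N-acyl taurines. NAPE-PLD, ABHD4 and GDE1 release N-acyl ethanolamines from membrane phospholipids, directly or stepwise, and NAAA degrades them in lysosomes. BAAT joins bile acids to taurine or glycine, GLYAT joins acyl-CoA to glycine in mitochondria, and ACNAT1 joins fatty acids to taurine in peroxisomes. ACNAT2 is a close relative of ACNAT1.

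Total counts per library ran from 33821890 to 51107243. The treatment tags of 2 libraries go against their titles: C18:1 replicate 1 carries a tag for diet only and C18:1-leucine replicate 1 one for C18:1. The titles set the groups here, and results that rest on these libraries are given with and without them. Levels are CPM, the counts of a gene relative to the scaled size of its library. Hepatocyte genes fixed as markers (Alb, Ttr, Apoa1, Hnf4a, Cps1, Asgr1, Cyp2e1 and Tat) summed to between 41761 and 104262 CPM in every library and the 4 kidney markers summed to at most 0.0863 CPM. The sum of 8 exocrine pancreas markers was 917 CPM in the second C18:1-leucine replicate, 194 CPM in the second chow replicate and at most 7.68 CPM elsewhere. In bulk tissue, fewer cells of a type and less RNA per cell cannot be told apart.

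The 10 genes lie on 6 chromosomes of the GRCm38 build. Pm20d1 (ENSMUSG00000042251) is at chromosome 1, 131797381 to 131821473, Faah (ENSMUSG00000034171) at chromosome 4, 115967145 to 116017926, and Naaa (ENSMUSG00000029413) and Napepld (ENSMUSG00000044968) are on chromosome 5, at 92257659 to 92278170 and 21662901 to 21701396. Gde1 (ENSMUSG00000033917) is at chromosome 7, 118688545 to 118705778, Abhd4 (ENSMUSG00000040997) at chromosome 14, 54254188 to 54270637, and Glyat (ENSMUSG00000063683) at chromosome 19, 12633308 to 12653911. Baat (ENSMUSG00000039653; 49489422 to 49506557), Acnat1 (ENSMUSG00000070985; 49447105 to 49473912) and Acnat2 (ENSMUSG00000060317; 49379840 to 49408151) lie side by side on the minus strand of chromosome 4, within 127 kb. Exons of Gde1 share 229 bases with Gm45236 and those of Acnat2 share 29 bases with the pseudogene Gm12451, both on the opposite strand, and the sources used here do not say whether counting used strand.

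In C18:1 against chow, described below, Faah and Glyat were lower and Naaa and Napepld higher. The sequences just upstream of the start sites are shown for these 4 genes. They are the 250 bases before each RefSeq start site (GRCm38.p6), 5′ to 3′ on the gene's strand, at chr4:116017925-116018174 (minus strand), chr19:12633058-12633307 (plus), chr5:92278182-92278431 (minus) and chr5:21701623-21701872 (minus). Capitals mark the GC box letters GGGCGG on either strand.
Faah: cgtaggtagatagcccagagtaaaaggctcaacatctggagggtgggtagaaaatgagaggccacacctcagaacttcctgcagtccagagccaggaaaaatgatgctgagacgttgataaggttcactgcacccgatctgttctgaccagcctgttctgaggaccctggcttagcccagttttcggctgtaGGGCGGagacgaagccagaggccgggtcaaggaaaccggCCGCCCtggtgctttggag
Glyat: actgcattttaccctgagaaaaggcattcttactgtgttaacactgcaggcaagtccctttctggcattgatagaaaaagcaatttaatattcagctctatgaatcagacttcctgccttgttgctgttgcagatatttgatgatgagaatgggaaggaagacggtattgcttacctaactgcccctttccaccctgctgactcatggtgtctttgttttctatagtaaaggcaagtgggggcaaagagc
Naaa: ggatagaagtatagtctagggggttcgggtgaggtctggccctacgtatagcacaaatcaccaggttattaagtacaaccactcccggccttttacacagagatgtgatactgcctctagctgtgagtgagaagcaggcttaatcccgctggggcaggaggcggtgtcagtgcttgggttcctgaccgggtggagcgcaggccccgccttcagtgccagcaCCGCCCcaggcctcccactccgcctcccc
Napepld: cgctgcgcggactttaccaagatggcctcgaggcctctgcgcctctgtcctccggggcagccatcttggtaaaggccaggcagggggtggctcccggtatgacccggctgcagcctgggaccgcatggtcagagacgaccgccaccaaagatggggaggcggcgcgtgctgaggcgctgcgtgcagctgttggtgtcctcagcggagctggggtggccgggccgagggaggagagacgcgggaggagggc

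The 4 stretches differed in base composition. The upstream bases of Glyat were 42.8% G or C with 1 CG pair, those of Faah 55.6% with 9, those of Naaa 59.2% with 10 and those of Napepld 69.6% with 21, where the median over 14287 windows of tested genes was 59.2%. GGGCGG was found in Faah and Naaa, and 32.7% of all 32851 windows and 54.6% of the windows of tested genes hold it. The title of the series names the receptor PPARα, which binds direct repeats of AGGTCA with a spacer of 1 base. The strict form of this repeat, DR1 without mismatches, was searched on both strands like the other motifs. It was found in 0 of the 10 windows of 8 of the genes and in 0.0335% of all windows. At so low a share almost any 10 windows would lack it, so the 0 cannot decide whether the receptor binds these genes. The single letters AGGTCA were found in 1 window, that of Gde1, against 4607 of all 32851 windows. No window was matched for Pm20d1 or Baat, so none was searched. The windows of Acnat1, Acnat2, Gde1 and Abhd4 were searched but are not shown.

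Compared per kilobase of exon, the levels of the 10 transcripts spanned a wide range in chow liver. Baat, whose product conjugates bile acids, was the most abundant, at 188 ± 12.9 CPM per kilobase (SD, n = 4). Glyat followed at 54.1 ± 4.04, Acnat2 at 41.8 ± 20.5, Gde1 at 37.4 ± 3.06, Acnat1 at 23.4 ± 3.65 and Faah at 18.6 ± 0.848 CPM per kilobase. Pm20d1 stood at 12.7 ± 1.06, Abhd4 at 11.7 ± 0.736, Naaa at 0.883 ± 0.136 and Napepld at 0.299 ± 0.0993 CPM per kilobase. The ranges of neighbours in this order overlapped for Glyat and Acnat2, for Acnat2 and Gde1, and for Pm20d1 and Abhd4, and with the longest transcript as the length the last 2 changed places. Baat and Glyat stood at the top of the order, Napepld and Naaa at the bottom, and the places of Acnat1 and Acnat2 rest on an estimated split of shared reads, described below. The expected counts behind Napepld were 34 to 141 per library and those behind Naaa 102 to 379, while each of the other 8 had more than 1100 in every library.

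**Figure D1:**
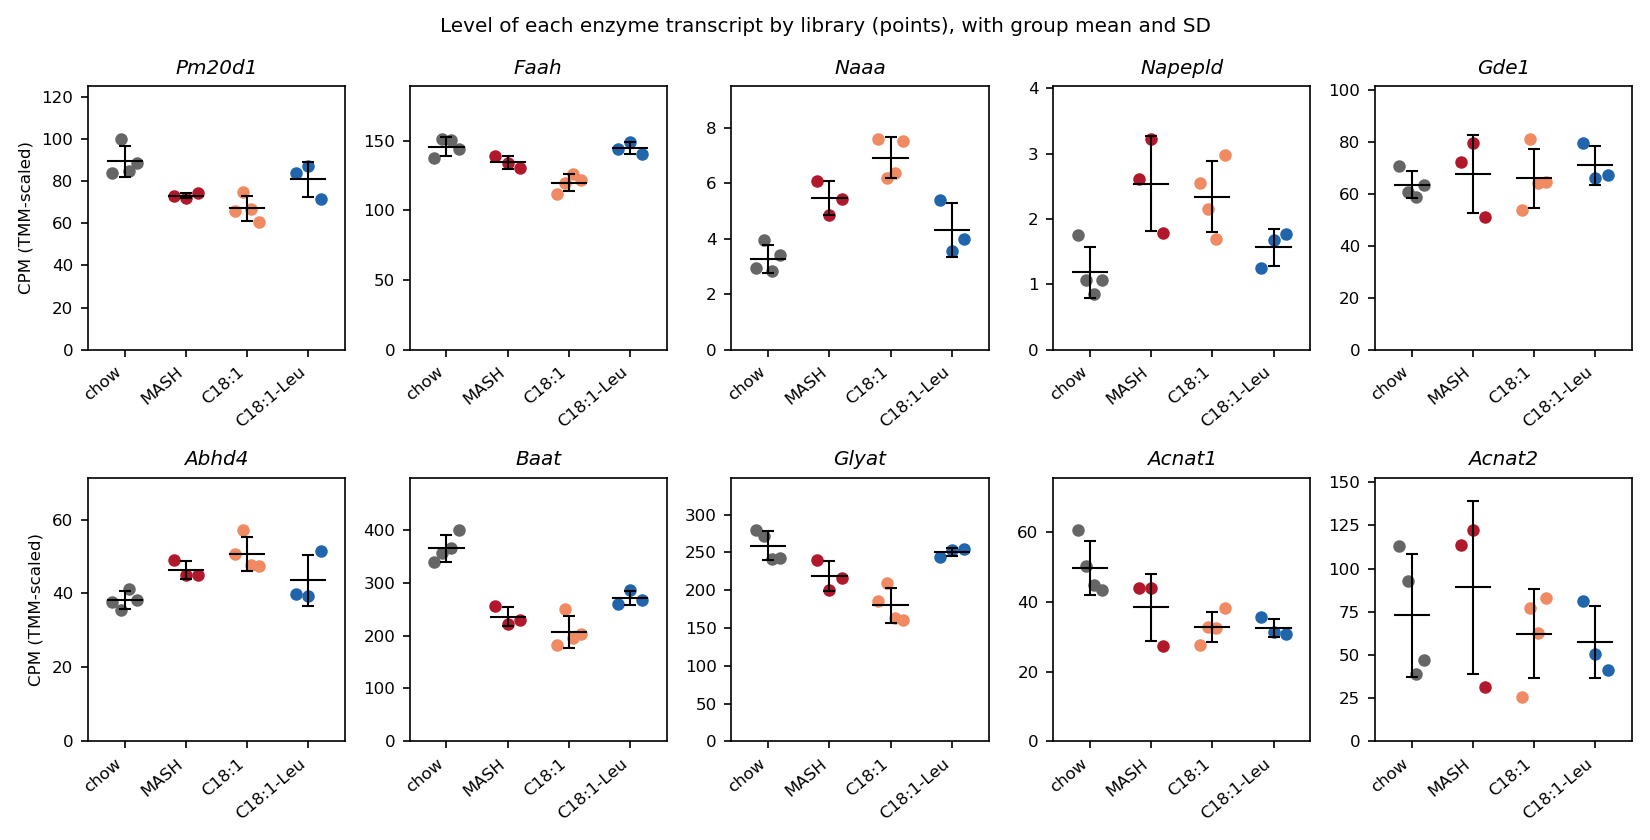
Level of each of the 10 transcripts in CPM (linear axis from 0) for each library of the chow, MASH, C18:1 and C18:1-leucine groups, with the group mean and SD. Baat, Glyat, Faah and Pm20d1 were lowest on average with C18:1 and closer to chow with C18:1-leucine, while Naaa ran the other way.

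MASH against chow is the comparison of diets. Naaa and Napepld, which degrade and make N-acyl ethanolamines, rose, as did Abhd4 by a small amount, while Baat and Pm20d1 fell. In all 3 of 10 enzymes were higher and 2 lower at an adjusted p of 0.05 (edgeR), where the diet moved 35.5% of all tested genes, 20.4% up and 15.1% down. The median log2 fold change of the 10 was −0.01, against 0.0065 over all tested genes. The labels do not say how chow or MASH mice were handled in the treatment period.

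Pm20d1, the secreted enzyme that joins fatty acids to amino acids, stood at 83.7, 100, 84.9 and 88.5 CPM in chow replicates 1 to 4 and at 73.0, 72.1 and 74.2 CPM in MASH replicates 2 to 4. Every MASH library lay below every chow library. The log2 fold change was −0.29 ± 0.09 (SE; adjusted p = 0.0224, edgeR). The call ended without chow replicate 2 (adjusted p = 0.061) or MASH replicate 2 (0.0542), 3 (0.059) or 4 (0.055), and with unscaled library totals (0.899).

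Faah, the main intracellular hydrolase of these amides, was at 137, 151, 151 and 144 CPM in chow and at 139, 134 and 130 CPM in MASH. The groups overlapped, and the log2 fold change of −0.12 (95% interval −0.26 to 0.02) did not pass (adjusted p = 0.165, edgeR). With unscaled library totals it was 0.15.

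Naaa, the lysosomal amidase, was at 2.93, 3.94, 2.84 and 3.41 CPM in chow and at 6.07, 4.85 and 5.44 CPM in MASH. The groups did not overlap, and the log2 fold change was 0.73 ± 0.16 (adjusted p = 0.00422). Napepld, whose product releases N-acyl ethanolamines from their phospholipid precursors, was at 1.75, 1.07, 0.856 and 1.06 CPM in chow and at 2.61, 3.23 and 1.78 CPM in MASH. Its fold change was 2.14 (95% interval of the log2 value 0.49 to 1.70, adjusted p = 0.00878), with chow replicate 1 and MASH replicate 4 nearly at the same level. Both calls were kept in all 23 alternatives, each library left out included.

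Abhd4, which strips acyl chains from the same precursors, was at 37.7, 35.5, 41.3 and 38.4 CPM in chow and at 49.1, 45.0 and 45.0 CPM in MASH. The log2 fold change of 0.28 ± 0.10 passed narrowly (adjusted p = 0.0432) and ended in 10 of 23 alternatives, among them without MASH replicate 2 (0.135), 3 (0.0651) or 4 (0.0772), without chow replicate 1 (0.0743), 2 (0.0995) or 4 (0.0806), without C18:1 replicate 1 (0.052) and with a replicate block (0.0972). Gde1, the phosphodiesterase of the stepwise route, was at 58.9 to 70.6 CPM in chow and at 72.1, 79.6 and 50.9 CPM in MASH. Its log2 fold change was 0.09 (95% interval −0.24 to 0.42), and MASH replicate 4 lay below every chow library while the other 2 lay above.

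Of the conjugating enzymes, Baat fell most. It was at 340, 356, 366 and 399 CPM in chow and at 256, 222 and 230 CPM in MASH. Every MASH library lay below every chow library, the log2 fold change was −0.63 ± 0.11 (adjusted p = 0.000709), and the call was kept in all 23 alternatives. Glyat, the glycine conjugation enzyme, was at 279, 271, 241 and 243 CPM in chow and at 240, 201 and 216 CPM in MASH. The groups did not overlap, but the gap between them was small, and the log2 fold change of −0.24 ± 0.10 did not pass (adjusted p = 0.0775). It was 0.029 with unscaled library totals, and the adjusted p was 0.0355 with DESeq2 and 0.0458 without C18:1 replicate 2.

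Markers of cell types moved with these results. Of 8 hepatocyte markers 7 were lower in MASH, with summed levels of 79263 to 104262 CPM in chow and 52901 to 59512 in MASH, and of 8 macrophage markers (Adgre1, Cd68, Csf1r, Lyz2, Clec4f, Cd5l, Itgax and Gpnmb) 7 were higher, from 298 to 476 CPM in chow to 902 to 1020 in MASH. Their part in the changes of Baat, Pm20d1, Naaa and Napepld was not tested.

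**Figure D2:**
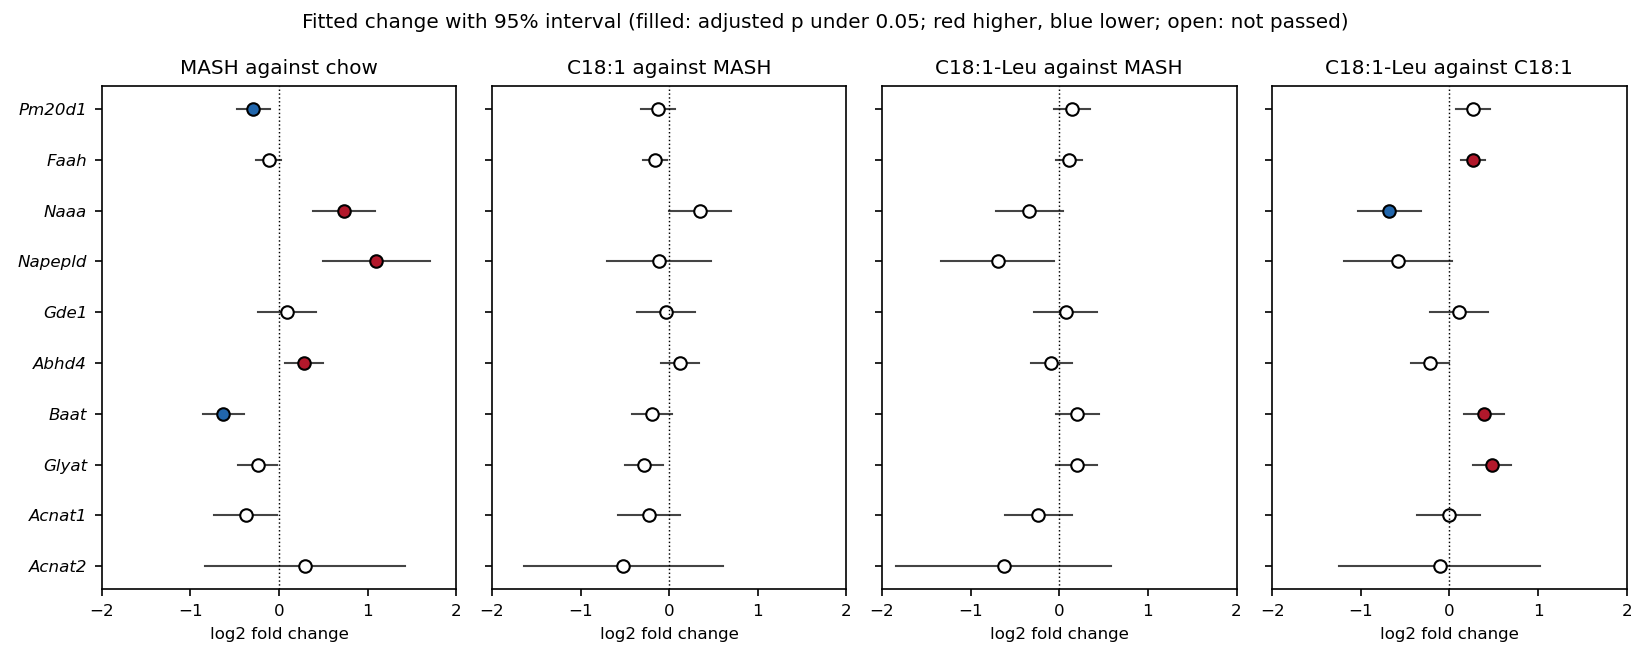
Fitted log2 fold change of each enzyme with its 95% interval in 4 comparisons; filled points passed an adjusted p of 0.05. Filled points stand in MASH against chow (5 enzymes) and in C18:1-leucine against C18:1 (4 enzymes), and there are none in the comparisons of either compound with MASH.

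The comparisons of each compound with MASH set C18:1 and C18:1-leucine beside the diet group. The labels give treatment weeks only for the treated groups. A difference in age or time on the diet therefore cannot be told apart from an effect of the compounds. Both comparisons share the 3 MASH libraries, so their values are set side by side only. With C18:1 none of the 10 passed with edgeR, DESeq2 or limma voom. Of all tested genes edgeR called 0%, DESeq2 called 3 genes and limma voom 0. Faah and Glyat had an unadjusted p under 0.05 in edgeR, with log2 fold changes of −0.16 ± 0.06 and −0.28 ± 0.10, both at an adjusted p of 0.77. With C18:1-leucine none of the 10 passed with any of these 3 tools. Of all genes edgeR called 0.0702% (11 genes), 0.00638% as higher and 0.0638% as lower, while DESeq2 called 960 genes and limma voom 601. In edgeR 1 enzyme, Napepld, had an unadjusted p under 0.05 (−0.70 ± 0.30, adjusted p = 0.241).

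Pm20d1 was at 65.9, 74.8, 66.7 and 60.7 CPM with C18:1 and at 83.6, 87.1 and 71.6 CPM with C18:1-leucine. Against MASH the log2 fold changes were −0.13 (95% interval −0.32 to 0.06) and 0.14 (−0.06 to 0.35). Baat was at 181, 250, 195 and 203 CPM with C18:1 and at 260, 286 and 267 CPM with C18:1-leucine, with log2 fold changes of −0.19 (−0.41 to 0.04) and 0.20 (−0.04 to 0.44). These 4 intervals include 0. The intervals of Faah were the narrowest of the 10, at −0.30 to −0.03 with C18:1 and −0.04 to 0.25 with C18:1-leucine.

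The comparison of C18:1-leucine with C18:1 sets the leucine conjugate beside the free fatty acid it contains. Glyat, Baat and Faah were higher and Naaa was lower with the conjugate, and the other 6 did not pass. That is 4 of 10 enzymes, where 16.2% of all tested genes passed, 7.34% as higher and 8.89% as lower. The median log2 fold change of the 10 was 0.05, against −0.02 over all genes.

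Glyat was at 186, 210, 163 and 161 CPM with C18:1 and at 244, 253 and 255 CPM with C18:1-leucine. All conjugate libraries lay above all C18:1 libraries, and the log2 fold change was 0.48 ± 0.10 (adjusted p = 0.00945, edgeR). Baat, given above, likewise did not overlap, at 0.39 ± 0.10 (adjusted p = 0.0249). The fold differences were 1.39 for the glycine conjugation enzyme and 1.31 for the bile acid conjugation enzyme.

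Faah was at 112, 119, 126 and 122 CPM with C18:1 and at 144, 149 and 140 CPM with C18:1-leucine. The groups did not overlap, and the log2 fold change was 0.27 ± 0.06 (adjusted p = 0.0148). Pm20d1 gave a log2 fold change of the same size, 0.27 ± 0.09, but C18:1-leucine replicate 4 lay below C18:1 replicate 2, and the adjusted p of 0.0528 missed the threshold. With DESeq2 it was 0.031 and with limma voom 0.00884. Pm20d1 passed in 5 of 23 alternatives, over which its log2 fold change ran from 0.046 to 0.36 and its adjusted p from 0.00884 to 0.708.

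Naaa was at 7.60, 6.19, 6.38 and 7.52 CPM with C18:1 and at 5.41, 3.55 and 3.98 CPM with C18:1-leucine. The groups did not overlap, and the log2 fold change was −0.68 ± 0.16 (adjusted p = 0.0164). Napepld was at 2.55, 2.16, 1.69 and 2.98 CPM with C18:1 and at 1.25, 1.69 and 1.77 CPM with the conjugate, and did not pass (−0.58, 95% interval −1.19 to 0.02, adjusted p = 0.174). Abhd4 did not pass either (−0.22, −0.43 to −0.0022, adjusted p = 0.152), with C18:1-leucine replicate 4 at 51.6 CPM against 39.8 and 39.3 in replicates 1 and 2. Without that replicate the log2 fold change was −0.34 (adjusted p = 0.0245), and Abhd4 also passed with unscaled library totals (−0.43, 0.0171) and with limma voom (0.047). In the other 20 of 23 alternatives Abhd4 did not pass, with values as weak as −0.077 and adjusted p up to 0.865.

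These calls rest on how the libraries are labelled. With groups taken from the treatment tags, 0 of the 10 enzymes passed, with adjusted p of 0.347 for Glyat, 0.451 for Baat, 0.507 for Faah and 0.225 for Naaa. Without both libraries whose tag and title disagree, Naaa alone passed, and Glyat (0.0531), Faah (0.103) and Baat (0.116) did not, in a fit with fewer libraries. Without C18:1-leucine replicate 2, the library with the most pancreatic transcripts, Glyat alone passed, and the adjusted p was 0.0716 for Faah, 0.0861 for Naaa and 0.107 for Baat. The Naaa call also ended without C18:1-leucine replicate 4 (0.0503), and the Baat call without C18:1-leucine replicate 1 (0.0532) or C18:1 replicate 1 (0.0717), 3 (0.0577) or 4 (0.0659). With unscaled library totals Naaa kept its call, and Faah (0.642), Baat (0.157) and Glyat (0.0798) did not. With the compared groups alone Faah (0.051) and Baat (0.0647) did not pass. The direction of all 4 was kept in the 23 alternatives.

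Cell type markers moved here too. Hepatocyte markers were higher with the conjugate in 4 of 8 cases and summed to 61429 to 83368 CPM, against 41761 to 52391 with C18:1. Macrophage markers were lower in 5 of 8 cases and summed to 429 to 695 CPM, against 849 to 1409. All 4 tested erythroid markers (Hba-a1, Hba-a2, Hbb-bt and Alas2) were higher with the conjugate, with a median log2 fold change of 1.40, and summed to 355 to 674 CPM, against 159 to 411 with C18:1. Their part in the differences of Baat, Glyat, Faah and Naaa was not tested.

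**Figure D3:**
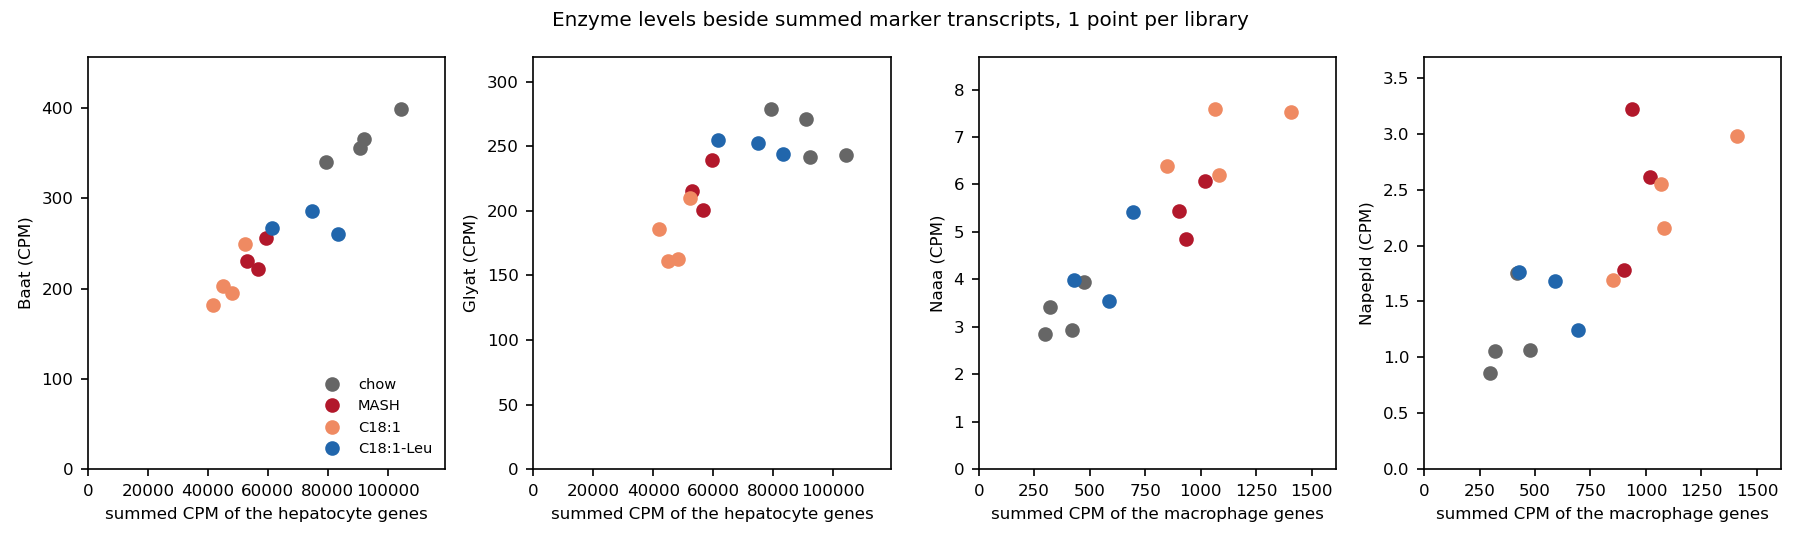
Levels of Baat, Glyat, Naaa and Napepld in CPM (vertical axes) beside the summed CPM of the hepatocyte or macrophage markers (horizontal axes), 1 point per library, coloured by group; all axes are linear from 0. Baat ran from 181 CPM in C18:1 replicate 1 to 399 CPM in chow replicate 4, the libraries with the lowest and highest hepatocyte sums, and Glyat was highest, at 279 CPM, in chow replicate 1, the lowest chow library by that sum.

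Set against chow, the treated groups differed in how many enzymes stood apart. With C18:1, 8 of 10 passed, 3 as higher and 5 as lower, where 52.6% of all genes passed, 27.8% up and 24.9% down. With C18:1-leucine, 2 of 10 passed, both as lower, where 14.5% of all genes passed, 10.2% as higher and 4.34% as lower. Both comparisons use the same 4 chow libraries, beside 4 libraries of C18:1 and 3 of C18:1-leucine. The counts of calls alone therefore do not measure how near a group came to chow.

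Naaa was higher with C18:1 than in chow by a fold of 2.11 (95% interval of the log2 value 0.75 to 1.41, adjusted p = 9.35e-05). Napepld was higher by 0.98 ± 0.27 on the log2 scale (0.00719) and Abhd4 by 0.41 ± 0.09 (0.00259). For Napepld the groups overlapped, with chow replicate 1 at 1.75 CPM and C18:1 replicate 3 at 1.69 CPM. Baat was lower, at −0.82 ± 0.10 (2.33e-05), as were Acnat1 (−0.60 ± 0.15, 0.00528), Glyat (−0.52 ± 0.09, 0.000489), Pm20d1 (−0.41 ± 0.08, 0.001) and Faah (−0.28 ± 0.06, 0.00151; 0.083 with unscaled library totals). With unscaled library totals the calls of Pm20d1 (0.586), Glyat (0.16) and Acnat1 (0.15) ended as well, and with groups from the tags those of Faah (0.0896) and Napepld (0.0547). Leaving out each library in turn ended none of the 8 calls.

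With C18:1-leucine, Baat stayed below chow at −0.43 ± 0.11 (adjusted p = 0.0188) and Acnat1 at −0.61 ± 0.17 (0.0289). The other 8 did not pass, and the 95% intervals were −0.15 to 0.12 for Faah, −0.26 to 0.17 for Glyat, −0.34 to 0.05 for Pm20d1, 0.04 to 0.75 for Naaa and −0.21 to 1.02 for Napepld. The Baat call ended without C18:1-leucine replicate 1 (adjusted p = 0.0607) or 4 (0.0587), without both libraries with disagreeing tags (0.052) and with groups from the tags (0.129). The Acnat1 call ended without chow replicate 1 (0.0689) or 2 (0.0552), without C18:1-leucine replicate 2 (0.0821) or 4 (0.0944), with a replicate block (0.0548) and with groups from the tags (0.0744).

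Acnat1 and Acnat2 need a separate account, since their counts are not independent. They were the only 2 of the 10 with fractional counts, in all 14 libraries, and the 2 counts added up to a whole number in each of the 14 to within 0.01. In chow replicate 1, for example, 2102.57 counts were given to Acnat1 and 3923.43 to Acnat2, together 6026. The longest coding transcripts of the genes are 91.4% identical over 1519 aligned bases, and 35.1% of the 50-base words of Acnat1 also occur in Acnat2. Baat, their neighbour, shares no such word with either gene and had whole counts throughout. The split between Acnat1 and Acnat2 is thus an estimate, and the sum is the firmer value.

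Acnat2 varied more within groups than any other of the 10 enzymes. It was at 113, 92.8, 38.9 and 47.0 CPM in chow, at 114, 122 and 31.5 CPM in MASH, at 25.8, 77.4, 62.9 and 83.2 CPM with C18:1 and at 81.2, 50.6 and 41.3 CPM with C18:1-leucine. The SD was between 36.1% and 56.2% of the group mean in the 4 groups, against at most 33.2% for any other enzyme. High and low libraries occurred in every group, and no comparison passed. Summed, the pair gave a log2 fold change of 0.06 (95% interval −0.77 to 0.88) in MASH against chow and −0.07 (−0.90 to 0.75) in C18:1-leucine against C18:1.

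Acnat1 alone varied less, at 60.5, 50.4, 44.8 and 43.4 CPM in chow, 43.9, 43.8 and 27.3 in MASH, 27.7, 32.7, 32.4 and 38.3 with C18:1, and 35.6, 31.2 and 30.9 with C18:1-leucine. Both treated groups lay wholly below chow. In MASH against chow Acnat1 did not pass (−0.38 ± 0.17, adjusted p = 0.0927, edgeR), but it did with groups from the treatment tags (−0.48, 0.0292). With the 2 genes summed, the difference from chow was −0.37 (−1.13 to 0.40, adjusted p = 0.398) with C18:1 and −0.44 (−1.28 to 0.39, adjusted p = 0.454) with C18:1-leucine. The sum includes the more variable Acnat2, so it cannot decide whether the calls of Acnat1 against chow rest on the estimated split. The share of the pair's counts given to Acnat2 ran from 46.5% in chow replicate 3 to 73.6% in MASH replicate 3. The cholangiocyte markers were Krt19, Krt7, Epcam, Sox9 and Spp1, and their sum was mostly Spp1. Its mean was 160 CPM in MASH and 243 CPM with C18:1, against at most 8.52 CPM for each other marker in these groups. MASH replicate 4 and C18:1 replicate 1 were the lowest libraries of their groups for the summed pair, at 58.8 and 53.5 CPM. They also had the highest cholangiocyte sums of their groups, 365 and 425 CPM. C18:1-leucine replicate 4 was likewise the lowest of its group for the pair (72.2 CPM) and the highest for these markers (205 CPM). This did not hold in chow, where replicate 3 was lowest for the pair (83.7 CPM) and also for the cholangiocyte sum (33.0 CPM). C18:1 replicate 3 had a sum of 387 CPM beside a pair level of 95.3 CPM. The part of these markers in the result was not tested.

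**Figure D4:**
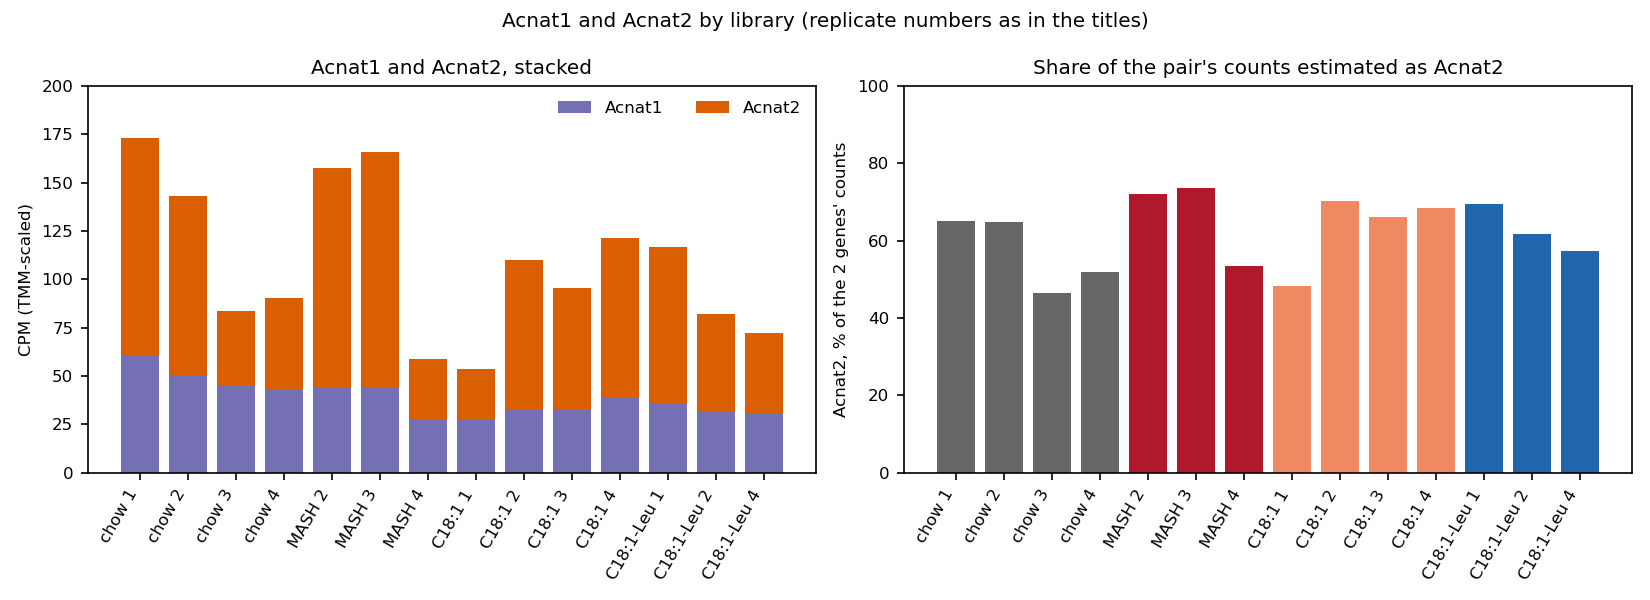
Left, CPM of Acnat1 and Acnat2 stacked for each of the 14 libraries; right, the percent of the pair's counts that was given to Acnat2. The height of the stack changes mostly through Acnat2, with tall and short bars in every group.

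For each enzyme the tested genes with the most similar profile of log2 CPM over the 14 libraries were looked up, as a description. Genes without a symbol or with a clone name were left out of this search. The libraries share groups and depth, so any gene that follows the diet scores high. Naaa was most like Rhoh, Cd40 and Pla2g4a (Pearson r of 0.97, 0.968 and 0.966). Faah was most like Nr1i3, the gene of the liver nuclear receptor CAR (0.95), Baat was most like Jtb (0.985), Pm20d1 like Cfhr4 (0.972), Napepld like Ppp2r5b (0.972), and Glyat like Zhx1 (0.929). Acnat2 had the weakest nearest neighbour, Zfp236 at 0.896.

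Other genes of the same routes were taken from 3 lists. Of 18 tested enzymes that make or cleave amides and endocannabinoids, 9 were higher and 2 lower in MASH than in chow, where 20.4% of all tested genes were higher and 15.1% lower, and the median log2 fold change was 0.29 against 0.0065 over all tested genes. Inpp5d and Ptpn22, phosphatases chiefly of blood cells that have been placed in a side route to anandamide, rose by 1.55 ± 0.14 and 1.45 ± 0.27. Cndp2, a dipeptidase that also makes N-lactoyl amino acids, rose by 0.59 ± 0.09, and Abhd12, a lipase that cleaves the endocannabinoid 2-arachidonoylglycerol and lysophospholipids, by 0.40 ± 0.07. Without MASH replicate 4 the count of 11 was 7. The 2 that fell, named after their values were seen, were the aminoacylases Acy1 (−0.90 ± 0.19), which frees amino acids from N-acetyl forms, and Aspa (−0.60 ± 0.16), which cleaves N-acetylaspartate.

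In C18:1-leucine against C18:1, 4 of these 18 were lower and 2 higher, where 8.89% of all genes were lower and 7.34% higher, and the median was −0.18 against −0.02 over all genes. Inpp5d was lower at −0.96 ± 0.14 (10.3 against 20.2 CPM), as was Cndp2 at −0.35 ± 0.09, while Aspa (0.75 ± 0.16) and Acy1 (0.72 ± 0.18) were higher. The count of 6 was 2 without C18:1-leucine replicate 2 or C18:1 replicate 4, 3 without C18:1-leucine replicate 4 or C18:1 replicate 1, 10 with unscaled library totals, 0 with groups from the tags and 1 without both libraries whose tag and title disagree. Neither compound moved any of the 18 past the threshold against MASH in edgeR, where 3 (C18:1) and 5 (C18:1-leucine) had an unadjusted p under 0.05. DESeq2 called 0 and 2 of them, and limma voom 0 and 3.

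The second list holds 20 tested genes of acyl-CoA conjugation and bile acid side chains, thioesterase genes included. In MASH 6 were lower and 2 higher, a share near the 35.5% of all genes that passed (15.1% lower, 20.4% higher), and the median was −0.22. Acsm1, a mitochondrial enzyme that activates medium-chain acids before glycine conjugation, fell by 0.49 ± 0.10 on the log2 scale, and Acsm2, another member of that family, by 1.98 ± 0.46, with 0.362 CPM in MASH against 1.44 in chow. The thioesterase genes Acot2 (1.79 ± 0.36) and Acot6 (1.41 ± 0.28) rose.

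With C18:1-leucine against C18:1, 11 of the 20 were higher and 0 lower, where 7.34% of all genes were higher, and the median was 0.49. Acsm1 was at 349 against 238 CPM (0.55 ± 0.11), Acsm5 at 183 against 122 CPM (0.58 ± 0.13) and Acsm3 at 190 against 129 CPM (0.56 ± 0.13). Cdo1, which starts the route from cysteine to taurine, was at 1559 against 964 CPM (0.69 ± 0.15). Against chow, 13 of the 20 were lower and 2 higher with C18:1, where 52.6% of all genes passed (24.9% as lower), and 0 lower and 1 higher with C18:1-leucine, where 14.5% passed (4.34% as lower). The count of 15 with C18:1 was 9 with unscaled library totals and 8 with groups from the tags. The count of 1 with C18:1-leucine was 0 without chow replicate 2, 3 or 4 or C18:1-leucine replicate 2, with a replicate block or with groups from the tags. It was 2 without MASH replicate 2, C18:1 replicate 2 or C18:1-leucine replicate 1 and with unscaled totals, 3 with DESeq2 or without both libraries with disagreeing tags, and 6 with limma voom. Against MASH 0 of the 20 passed in edgeR with either compound, where 3 (C18:1) and 6 (C18:1-leucine) had an unadjusted p under 0.05, and DESeq2 called 0 and 4 and limma voom 0 and 2. The count of 11 was 3 without C18:1-leucine replicate 2, 4 without C18:1-leucine replicate 1 or C18:1 replicate 4, 5 without C18:1 replicate 1 and 6 without C18:1 replicate 3. It was 4 with unscaled library totals, 7 with the compared groups fitted alone, and 0 with groups from the tags or without both libraries whose tag and title disagree.

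**Figure D5:**
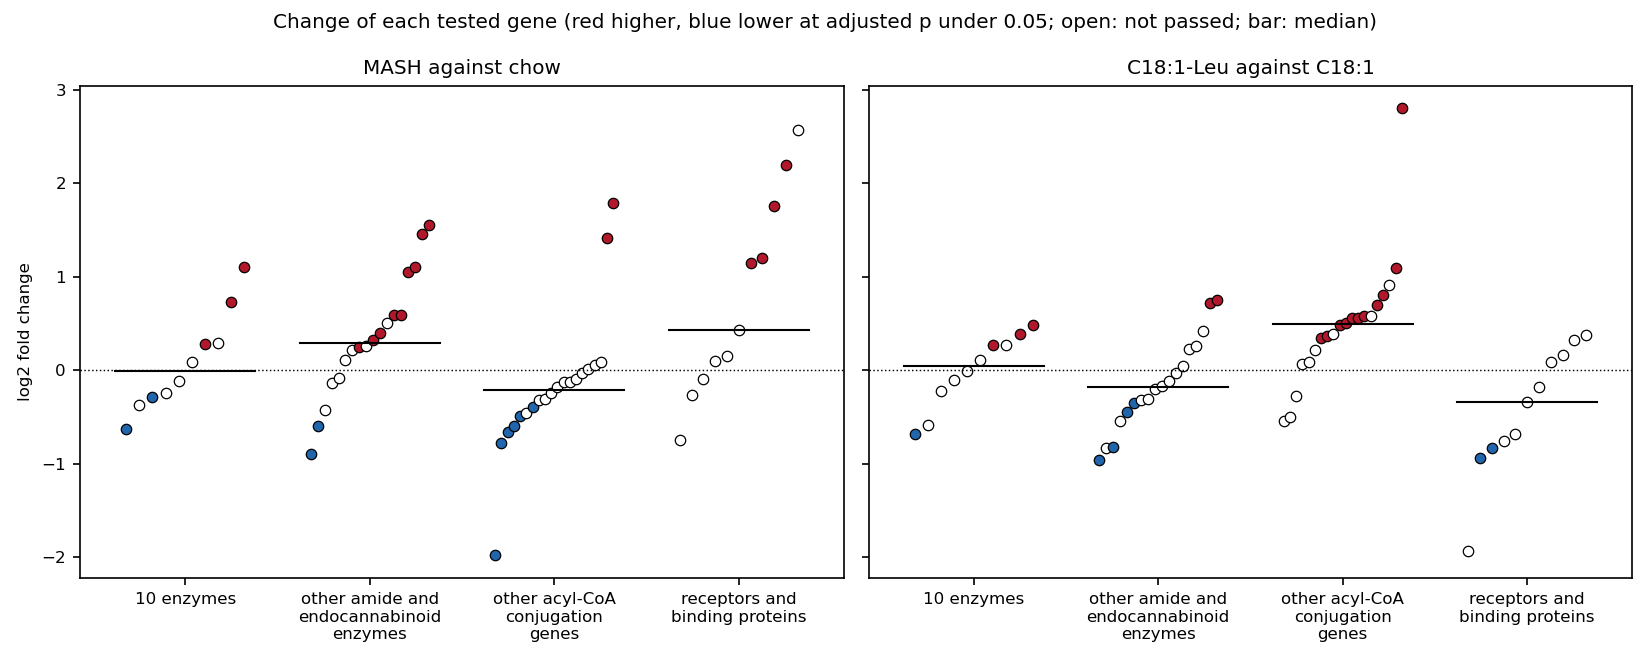
Log2 fold change of each tested gene of the 10 enzymes and of the 3 other lists in MASH against chow (left) and in C18:1-leucine against C18:1 (right); filled points passed an adjusted p of 0.05 and bars are medians. The acyl-CoA conjugation genes had a median of −0.22 on the left and 0.49 on the right.

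Of 11 tested receptors and binding proteins of N-acyl amides, 4 were higher and 0 lower in MASH, a share near the 35.5% of all genes that passed (20.4% as higher), and the median was 0.43. They were the fatty acid binding protein genes Fabp4 (2.19 ± 0.27) and Fabp7 (at 9.05 against 4.07 CPM), the nuclear receptor gene Pparg (at 16.2 against 7.04 CPM) and the receptor gene Gpr18 (1.76 ± 0.43, at 0.270 against 0.0784 CPM). With C18:1-leucine against C18:1, 2 of the 11 passed, Fabp4 (−0.84 ± 0.26) and Fabp7 (−0.94 ± 0.27), both as lower, a share near the 16.2% of all genes that passed (8.89% as lower). That count was 0 without C18:1-leucine replicate 2 or C18:1 replicate 4, with the compared groups alone, with groups from the tags and without both libraries with disagreeing tags. It was 1 without any single chow library, MASH replicate 4, C18:1 replicate 1 or 3, or C18:1-leucine replicate 1, and 1 with no filter on low counts, but 4 with DESeq2 or unscaled totals and 5 with limma voom. Between C18:1-leucine and MASH 0 of the 11 passed in edgeR, where 1 had an unadjusted p under 0.05, 1 passed in DESeq2 and 0 in limma voom. Between C18:1 and MASH 0 passed with each of the 3 tools, and 0 had an unadjusted p under 0.05.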

How the data were processed

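The values deposited by the authors are expected counts, one row for each Ensembl gene and one column for each of 14 liver libraries. The submitters' processing notes name the build GRCm38 and the tools HTSeq and DESeq2 1.42.1. The sources used here do not give the role of each or the tool behind the fractional counts. The expected counts were rounded before use. The authors' tables of comparisons were not used, since their group letters have no key in the sources used here.

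Genes were filtered with filterByExpr (minimum count 10, minimum total 15, smallest group 3), and one edgeR model (4.0.16, under R 4.3.3) held the 4 title groups, with TMM scaling and the robust, two-sided quasi-likelihood test. Adjusted p is the Benjamini-Hochberg value over all 15674 genes, called under 0.05. CPM used TMM-scaled library sizes, and log2 profiles a prior count of 2. Gene coordinates and exon lengths came from GENCODE M21 (GRCm38), which held all 10 enzymes, and upstream sequences from a table of RefSeq promoter windows (GRCm38.p6), in which 8 of them were matched.

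The enzymes and lists were chosen with earlier results of these data known. Named genes were all 10 enzymes, of each other list up to 4 genes with the smallest p among those past the threshold in a comparison, and the 3 most similar profiles of an enzyme; the text names a part of these. The scripts were tested on simulated data with known changes. In MASH against chow, edgeR recovered 27.3% of 1.5-fold and 83.3% of 4-fold changes. In C18:1-leucine against C18:1 it recovered 30.3% and 84.6%. Most small changes were thus missed, so an enzyme that did not pass is not shown to be unchanged. Pairs of libraries in a group differed beyond counting noise (lowest chi-square per gene 27.5). Alternatives were relative log expression scaling, unscaled library totals, no filter, DESeq2 1.42.0, limma 3.58.1 (voom with sample weights), the compared groups alone, a replicate block, omission of each library in turn, tag groups, the libraries with disagreeing tags left out, and another gene length. Summing Acnat1 and Acnat2 was added after the data were seen.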

Additional observations from a re-analysis of the deposited data

How the results depend on the processing

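Of the alternative values of the 10 enzymes in 6 comparisons, 1275 kept direction and side of the threshold, 50 lost and 13 gained a call and 42 changed sign, none of them between 2 called values. The number of enzymes past the threshold ranged from 3 to 6 in MASH against chow (main value 5) when 1 library was left out, from 1 to 5 in C18:1-leucine against C18:1 (4) and from 0 to 2 in C18:1-leucine against chow (2). It stayed at 8 in C18:1 against chow and at 0 in both comparisons with MASH. In C18:1-leucine against C18:1 it was 2 with unscaled totals, 2 with the compared groups alone, 0 with groups from the tags and 1 without both libraries with disagreeing tags. In C18:1 against chow it was 5 with unscaled totals. Between C18:1-leucine and chow it was 1 with a replicate block, 0 with groups from the tags and 1 without both libraries. The cause of these moves was not tested.

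Unscaled totals moved the median of all genes to 0.28 in MASH against chow, 0.096 in C18:1 against MASH, −0.14 in C18:1-leucine against MASH, −0.24 in C18:1-leucine against C18:1, 0.36 in C18:1 against chow and 0.15 in C18:1-leucine against chow. In that order they turned Faah (0.15) and Glyat (0.029), Gde1 (0.057), Faah (−0.025) and Gde1 (−0.053), Gde1 (−0.11), Faah (0.083) and Acnat2 (0.12), and Faah (0.13) and Glyat (0.097). Relative to the shift, each kept its direction. Groups from the tags turned Pm20d1 (0.0034), Baat (0.029), Acnat2 (0.056) and Gde1 (0.18) in C18:1 against MASH, Gde1 in C18:1-leucine against C18:1 (−0.12) and Acnat2 in C18:1 against chow (0.062). Without both libraries Gde1 turned in C18:1 against MASH (0.051), C18:1-leucine against MASH (−0.019) and C18:1-leucine against C18:1 (−0.071), and Acnat2 in C18:1 against chow (0.032; 0.056 with limma voom). The replicate block turned Faah in C18:1-leucine against chow (0.0037).

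With 1 library left out, values that crossed 0 ranged from −0.0065 to 0.69 for Acnat2 and −0.043 to 0.26 for Gde1 in MASH against chow, −0.32 to 0.094 for Napepld and −0.20 to 0.099 for Gde1 in C18:1 against MASH, −0.097 to 0.21 for Gde1 in C18:1-leucine against MASH, −0.084 to 0.073 for Acnat1 and −0.44 to 0.098 for Acnat2 in C18:1-leucine against C18:1, −0.44 to 0.064 for Acnat2 and −0.059 to 0.14 for Gde1 in C18:1 against chow, and −0.041 to 0.0050 for Faah in C18:1-leucine against chow.

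All genes past the threshold in C18:1-leucine against MASH numbered 11, and 32 with unscaled totals, 30 with no filter, 960 with DESeq2, 601 with limma voom, 51 with the groups alone, 35 with a replicate block and 0 with groups from the tags or without both libraries, and 0 to 61 with 1 library left out. Between the compounds the 2544 became 4459 with limma voom, 1621 with the groups alone, 487 without both libraries, 0 with groups from the tags, 756 without C18:1-leucine replicate 2, 1237 and 1238 without C18:1 replicate 1 and 4, and 1260 without C18:1-leucine replicate 1. Against chow the 2276 of C18:1-leucine became 653 with groups from the tags, 1338 without chow replicate 3 and 976 without C18:1-leucine replicate 4. In C18:1 against MASH DESeq2 called 3.

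Of 18 pairs of libraries with the same number across groups, 6 correlated above 0.1 in their deviations, against 14 of 55 pairs with different numbers. Of 14 libraries, 3 correlated best with their own number. These values do not decide whether libraries with the same number belong together. The replicate block moved the number of enzymes past the threshold from 2 to 1 in C18:1-leucine against chow, where the call of Acnat1 ended, and from 5 to 4 in MASH against chow, where that of Abhd4 ended. Counts of 34 to 141 limit the precision of Napepld.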
